A study of Mus musculus with 208 samples.

Results

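The mitochondrial ribosomal proteins were taken as the genes whose symbol in the annotation of the array begins with Mrpl or Mrps followed by a digit. The rule found 76 genes with 110 probes, of 16593 genes and 25697 probes on the array. Of these, 49 genes (70 probes) encode proteins of the large subunit and 26 genes (39 probes) proteins of the small subunit. Mrps18a and Mrps30 are named as small subunit proteins but lie in the large subunit and were counted there, and Mrps36 (1 probe), despite its symbol, is not a subunit of the ribosome. A probe was called detected when its detection p-value was under 0.05 on at least 50% of the arrays. By that measure 97 member probes (71 genes) were detected and 13 were not, and all 110 were kept in every fit.

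RNA of the left ventricle (LV) of female mice of the hybrid mouse diversity panel was hybridised to 208 Illumina MouseRef-8 v2.0 arrays, some of untreated control mice and the others of mice given isoproterenol (ISO), a β-adrenergic agonist, for 3 weeks from 8 to 9 weeks of age. The daily dose stands as 30 µg per g in the labels but as 20 in the submitters’ design text. Control arrays covered 93 strains, ISO arrays 93 strains and both conditions together 99 strains, and 87 strains had both: 27 classical inbred strains and 60 recombinant inbred (RI) strains of the AXB, BXA, BXD, BXH and CXB panels. Each array held pooled RNA of mice of 1 strain and condition, the strain is the unit of replication, and 13 strains had more than 1 control array and 9 more than 1 ISO array.

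Mitochondria keep a ribosome of their own, which translates the few messages encoded by mitochondrial DNA, all of them for hydrophobic core subunits of the respiratory chain and ATP synthase. Its RNAs come from mitochondrial DNA, whereas every one of its proteins is encoded in the nucleus, made in the cytosol and imported. Compared with the bacterial ribosome it has lost RNA and gained proteins, so that its subunits mix proteins with bacterial counterparts and proteins found only in mitochondria. The heart, which depends on oxidative phosphorylation, is rich in mitochondria.

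Promoters of the members are shown first, because the members are transcribed from separate nuclear genes and 3 short motifs known from genes of mitochondrial proteins could be counted in them. Windows of 300 bases, from 250 before to 50 after the start of the gene, were taken from RefSeq (GRCm38.p6) for 67 of the 76 genes (73 windows). The ETS core (CCGGAAG, either strand) was in 26 of 73 member windows (35.6%) and in 8.86% of the 32851 windows of all genes. For the NRF1 core (GCGCATGCG) the numbers were 7 windows (9.59%) and 1.75%, and for the YY1 core (AAGATGGCG) 8 windows (11%) and 1.4%. The ETS core lay in the same window as another of the 3 motifs 5 times. Genes with a detected probe held the motifs in 17%, 3.6% and 3.03% of their windows, in that order, cytosolic ribosomal protein genes in 35.5%, 3.23% and 8.06%, and genes of the respiratory chain and ATP synthase in 23.9%, 10.4% and 10.4%. The 6 windows below, 5′ to 3′ in the direction of the gene with the motifs on either strand in capitals, are those of Mrps25 and Mrpl45, lower with ISO, in which none of the 3 motifs was found; of Mrpl53, higher with ISO, with the ETS core once on each strand; of Mrpl22 and Mrps27, which hold 2 different motifs each; and of Mrpl35, the member whose level differed most between strains.
Mrps25, chr6:92183974-92184273, - strand: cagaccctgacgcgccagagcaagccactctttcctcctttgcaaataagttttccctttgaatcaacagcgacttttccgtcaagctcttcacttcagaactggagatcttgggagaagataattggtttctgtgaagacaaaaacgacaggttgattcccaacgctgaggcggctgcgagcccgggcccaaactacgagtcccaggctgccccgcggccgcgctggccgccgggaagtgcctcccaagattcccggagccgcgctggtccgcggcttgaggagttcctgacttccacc
Mrpl45, chr11:97315466-97315765, + strand: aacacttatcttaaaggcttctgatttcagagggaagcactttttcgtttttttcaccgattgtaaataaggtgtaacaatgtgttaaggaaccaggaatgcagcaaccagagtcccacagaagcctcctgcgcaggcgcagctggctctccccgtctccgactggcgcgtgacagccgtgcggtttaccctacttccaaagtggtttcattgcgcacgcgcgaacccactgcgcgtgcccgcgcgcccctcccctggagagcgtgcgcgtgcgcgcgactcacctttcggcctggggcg
Mrpl53, chr6:83108858-83109157, + strand: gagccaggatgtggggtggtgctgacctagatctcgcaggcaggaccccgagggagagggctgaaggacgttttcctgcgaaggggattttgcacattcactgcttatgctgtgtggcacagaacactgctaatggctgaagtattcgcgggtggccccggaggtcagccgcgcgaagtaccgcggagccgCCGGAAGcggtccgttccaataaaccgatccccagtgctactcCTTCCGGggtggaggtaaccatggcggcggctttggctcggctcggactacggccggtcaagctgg
Mrpl22, chr11:58171414-58171713, + strand: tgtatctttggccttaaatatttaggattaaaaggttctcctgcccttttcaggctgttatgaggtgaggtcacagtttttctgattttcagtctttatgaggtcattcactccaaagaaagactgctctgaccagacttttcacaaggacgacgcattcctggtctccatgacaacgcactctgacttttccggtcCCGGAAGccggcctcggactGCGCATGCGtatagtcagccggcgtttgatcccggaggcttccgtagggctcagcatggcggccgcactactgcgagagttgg
Mrps27, chr13:99344536-99344835, + strand: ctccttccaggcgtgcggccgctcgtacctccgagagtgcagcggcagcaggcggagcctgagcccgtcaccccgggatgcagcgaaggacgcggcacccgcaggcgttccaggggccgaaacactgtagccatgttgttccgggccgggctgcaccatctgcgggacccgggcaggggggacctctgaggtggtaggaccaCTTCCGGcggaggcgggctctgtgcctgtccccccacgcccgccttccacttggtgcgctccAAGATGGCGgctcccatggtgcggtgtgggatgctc
Mrpl35, chr6:71823735-71824034, - strand: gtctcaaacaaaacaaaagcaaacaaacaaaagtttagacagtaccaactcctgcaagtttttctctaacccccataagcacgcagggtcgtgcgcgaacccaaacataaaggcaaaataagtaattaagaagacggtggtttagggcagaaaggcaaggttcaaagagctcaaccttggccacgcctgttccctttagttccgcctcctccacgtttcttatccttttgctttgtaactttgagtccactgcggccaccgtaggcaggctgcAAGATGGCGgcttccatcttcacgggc

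A few facts of the whole series touch every value below. Between 38.1 and 49.6% of probes were detected on the control arrays and between 28.9 and 50.3% on the ISO arrays, and 5 arrays (3 control, 2 ISO) resembled the others of their condition so little that their standardised connectivity was under -2.5. A BeadChip carries 8 arrays, lettered A to H, and all but 7 of the control arrays lay at A, C, E or G and all but 5 of the ISO arrays at B, D, F or H, so treatment and position on the BeadChip can hardly be told apart. Over the 500 most variable probes, 115 of 196 arrays were most like an array of their own strain in the other condition. None of those on BeadChips 12, 19, 23, 24 and 25 was, and only 1 of 8 on BeadChip 6. On BeadChips 23 and 25 only 3 and 2 arrays could be compared. For BeadChips 12, 23 and 25 the arrays of the other condition lay on other BeadChips. All 11 cardiomyocyte marker genes on the array were detected. The labels mark the arrays of a strain as separate samples but do not say which mice went into which pool.

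With ISO, few mitochondrial ribosomal protein transcripts changed, and those that did changed little. Of 110 member probes, 4 fell past both thresholds used in the study (an adjusted p under 0.05 and a log2 difference beyond 0.2, a fall of 12.9% or a rise of 14.9%), where 3.53% of all probes did; the 4 probes are 3.64% of the members. They belong to Mrps25, Mrps35 and Mrpl45, all proteins without a bacterial counterpart. Another 2 probes rose past both thresholds (1.82%, where 3.72% of all probes did), those of Mrpl53 and Mrpl20. Without the threshold on the fold, 19 member probes of 18 genes were lower (17.3%, where 8.44% of all probes were) and 4 were higher (3.64%, where 6.7% were). Members are more often detected than other probes, and of the 11735 detected probes of the array 17.1% were lower and 12.5% higher at any fold, beside 19.6% and 4.12% of the 97 detected members. The median difference was -0.00408 on the log2 scale over the 110 member probes and -0.00207 over all probes, and 60 member probes had a difference below 0.

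**Figure D1:**
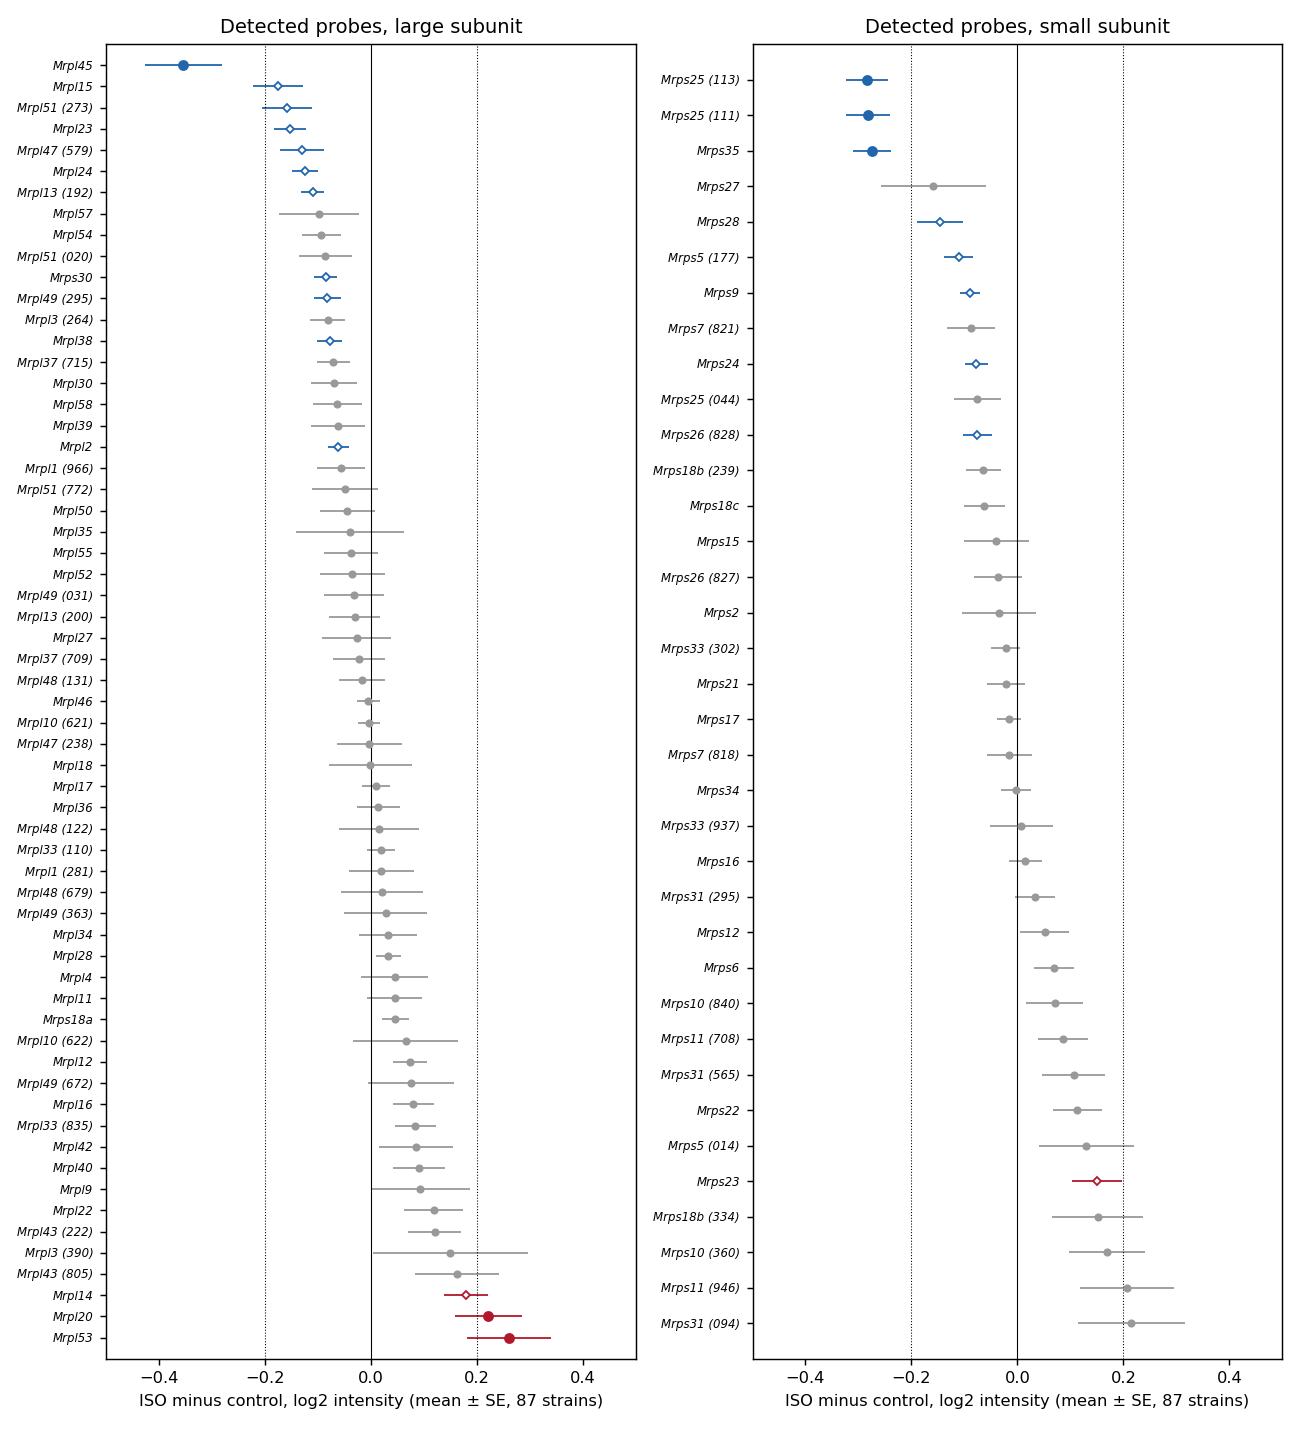
ISO minus control difference (log2 intensity, mean ± SE over 87 strains) of the 97 detected member probes, by subunit. Large filled coloured points passed both thresholds (4 lower, 2 higher), open diamonds passed the adjusted p only, grey points passed neither, dotted lines mark 0.2 on the log2 scale, and numbers in brackets are the last digits of the probe.

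Mrps25, a small subunit protein, was lower with ISO at 2 of its 3 probes. At the first (ILMN_1239113) the log2 intensity of the 87 control strain means ran from 7.35 through a median of 8.36 to 9.48, and that of the ISO strain means from 7.29 through 8.06 to 8.91. The levels of the conditions overlapped widely, but 71 of 87 strains were lower with ISO. The level fell by 17.9% (log2 difference -0.28 ± 0.04 SE, adjusted p 1.92e-08, limma with strain as a block). At the second probe (ILMN_2680111) control strains ran from 6.80 through 8.03 to 8.44 and ISO strains from 6.44 through 7.74 to 8.63, and 73 of 87 strains were lower (log2 difference -0.28 ± 0.04 SE, adjusted p 7.98e-08). The third probe (ILMN_1246044) gave -0.08 ± 0.05 SE with 50 strains lower (adjusted p 0.311), so the probes of this gene disagree in call though not in sign.

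Mrps35, also of the small subunit, had control levels from 9.96 through 10.6 to 11.1 and ISO levels from 8.61 through 10.4 to 11.1 (ILMN_1258993). Its ISO strains reached lower than any control strain and just as high, and 73 of 87 strains were lower. The level fell by 17.3% (log2 difference -0.27 ± 0.04 SE, adjusted p 2.37e-09), the smallest adjusted p among the members. The largest fall, -1.84, was that of AXB-19/PgnJ, whose ISO array had low connectivity and 31.7% of probes detected. Without this strain the log2 difference was -0.26.

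Mrpl45, a large subunit protein that sits near the exit of the nascent chain, gave the largest fall but at a low intensity. Control strains ran from 4.40 through 5.66 to 7.52 and ISO strains from 4.48 through 5.12 to 7.39 (ILMN_2668369), and the probe was detected on 63.5% of arrays. Many strains of both conditions lay close to the floor of the array, and 67 of 87 strains were lower with ISO. The level fell by 21.8% (log2 difference -0.35 ± 0.07 SE, adjusted p 0.000127). The second Mrpl45 probe (ILMN_2939080) was detected on 1.92% of arrays and gave -0.05 ± 0.03 SE (adjusted p 0.418).

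Mrpl53 and Mrpl20, both of the large subunit, were the 2 members past both thresholds in the upward direction. Mrpl53 ran from 8.88 through 12.2 to 12.8 in control strains and from 10.8 through 12.3 to 14.4 in ISO strains, with 57 of 87 strains higher (log2 difference 0.26 ± 0.08 SE, 19.7%, adjusted p 0.0142). Its medians lay close together, and a tail of low control strains and of high ISO strains set the means apart. Mrpl20 ran from 8.42 through 9.06 to 10.6 in control strains and from 8.32 through 9.20 to 12.5 in ISO strains, with 59 of 87 strains higher (0.22 ± 0.06 SE, 16.6%, adjusted p 0.00721). A few strains stood far above the others for each gene, AXB-19/PgnJ for Mrpl20 and AXB-6/PgnJ and AXB-4/PgnJ for Mrpl53. Without AXB-19/PgnJ, whose Mrpl20 difference was 3.40, that of Mrpl20 was 0.19 (adjusted p 0.00601) and under the fold threshold. AXB-6/PgnJ and AXB-4/PgnJ had Mrpl53 differences of 3.47 and 3.33, and the next strain, AXB-19/PgnJ, one of 2.26. Without AXB-6/PgnJ alone Mrpl53 stood at 0.22 (adjusted p 0.0208), and without both it gave 0.19 ± 0.06 SE (adjusted p 0.0286) and was under the fold threshold, which left Mrpl20 as the single member higher past both thresholds. Each of these 3 strains had an array of low connectivity. Without these 5 arrays (84 strains) Mrpl53 gave 0.14 (adjusted p 0.092) and Mrpl20 0.19, so that no member was higher past both thresholds, while 5 were lower (4.55%, where 2.96% of all probes were lower and 3.63% higher), Mrps28 (-0.21) joining the 4 above. With BeadChips 12, 19, 23, 24 and 25 left out instead (80 strains), the same 4 probes were lower (3.64%, where 4.52% of all probes were) and Mrpl53 (0.28), Mrpl20 (0.27) and Mrpl14 (0.21) higher past both thresholds (2.73%, where 4.26% of all probes were).

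**Figure D2:**
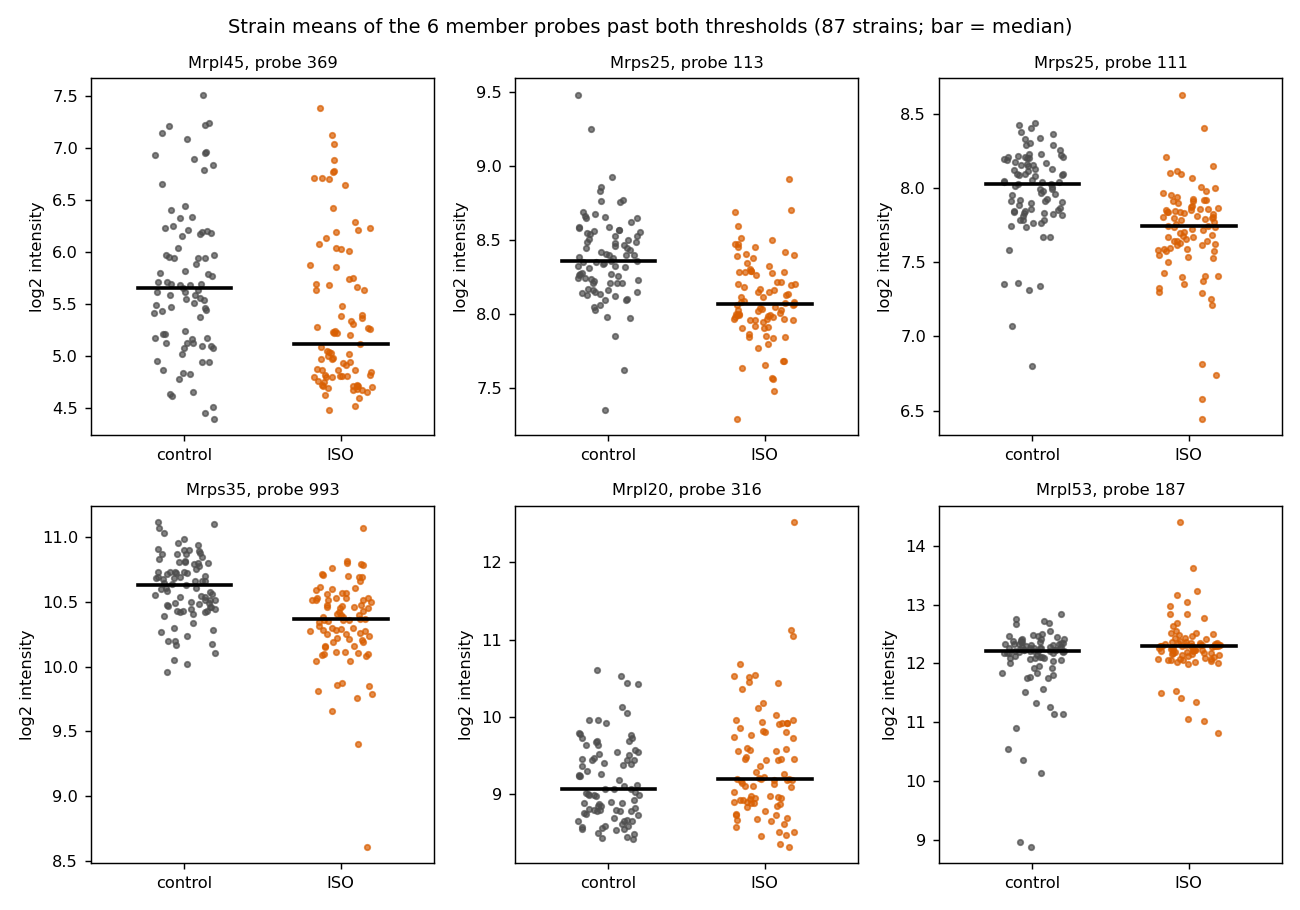
Log2 intensity of the 6 member probes past both thresholds, each point the mean of a strain in control or ISO (87 strains), with the median as a bar. The medians of Mrps25 and Mrps35 are lower with ISO within overlapping ranges, and Mrpl45 lies near the floor of the array in many strains. Mrpl20 and Mrpl53 each have a few strains far from the rest.

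Below the fold threshold 15 further probes that passed the test were lower by small amounts, down to a log2 difference of -0.06. Of the large subunit these were Mrpl15 (log2 difference -0.18 ± 0.05 SE, adjusted p 0.00397), which was detected on 58.2% of arrays, 1 of 3 Mrpl51 probes (-0.16), Mrpl23 (-0.15 ± 0.03 SE, adjusted p 6.52e-05, lower in 75 of 87 strains), 1 of 2 Mrpl47 probes (-0.13), Mrpl24 (-0.13 ± 0.02 SE, adjusted p 4.99e-05), 1 of 3 Mrpl13 probes (-0.11 ± 0.02 SE, adjusted p 3.71e-05), Mrps30 (-0.09), 1 of 4 Mrpl49 probes (-0.08), Mrpl38 (-0.08) and Mrpl2 (-0.06). Those of the small subunit were Mrps28 (-0.15), 1 of 2 Mrps5 probes (-0.11), Mrps9 (-0.09), Mrps24 (-0.08) and 1 of 2 Mrps26 probes (-0.08). Mrpl23, Mrpl24 and Mrpl2 have bacterial counterparts at the exit of the peptide tunnel or the peptidyl transferase centre. Higher at any fold were also Mrpl14 (0.18 ± 0.04 SE, adjusted p 0.000699, higher in 63 of 87 strains), just under the fold threshold, and Mrps23 (0.15 ± 0.05 SE, adjusted p 0.0182). On the p threshold, Mrps26 (ILMN_3005828, -0.08, adjusted p 0.0422) lay just inside and lost its call when any of 30 single strains was left out; Mrpl54 (-0.09, adjusted p 0.0667) lay just outside.

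Both subunits held called probes. Of 70 large subunit probes 11 were lower (15.7%) and 3 higher (4.29%) at any fold (median -0.00398). Of 39 small subunit probes 8 were lower (20.5%) and 1 higher (2.56%, median -0.0155). Over all probes 8.44% were lower and 6.7% higher, and over detected probes 17.1% and 12.5%. By descent, 9 of 46 probes (27 genes) of proteins found only in mitochondria were lower (19.6%) and 2 higher (4.35%, median -0.0272). All 4 lower probes past both thresholds were among them (8.7%, where 7.52% of detected probes were). Of 63 probes (48 genes) of proteins shared with bacteria, 10 were lower (15.9%) and 2 higher (3.17%, median 0.00522). The difference between these classes was not tested.

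Probes of 1 gene could differ in call. Among 22 genes with several probes, 8 had a called probe, in each of them beside a probe that was not called. None had every probe called or probes called in both directions. In Mrpl13, Mrpl45, Mrpl47, Mrpl51, Mrps25 and Mrps26 every probe had a negative difference, whereas the probes of Mrps5 and Mrpl49 differed in sign. Mrps5 gave -0.11 ± 0.03 SE (adjusted p 0.00143) at one probe and 0.13 ± 0.09 SE (adjusted p 0.409) at the other. Mrpl49 gave -0.08 ± 0.03 SE (adjusted p 0.016) at one probe and between -0.03 and 0.08 at the 3 others. The 3 Mrpl13 probes differed in detection (100, 92.8 and 0.962% of arrays), and only the first was called. The Mrps18 paralogs, which occupy different sites of the ribosome, gave 0.05 ± 0.03 SE for Mrps18a (adjusted p 0.268), -0.06 ± 0.03 SE (adjusted p 0.206) and 0.15 ± 0.09 SE (adjusted p 0.275) for the 2 Mrps18b probes and -0.06 ± 0.04 SE for Mrps18c (adjusted p 0.345). Mrpl9 (0.09 ± 0.09 SE, adjusted p 0.616) and Mrps21 (-0.02 ± 0.04 SE, adjusted p 0.792) did not pass the test.

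The response of the members was not the same on all BeadChips. The 26 BeadChips were split by slide number into 3 sets of 6, 14 and 6, with 24, 52 and 16 strains that had both conditions within the set. Set 1 held 13 classical strains, set 2 held 16 and set 3 none, and of the 5 arrays of low connectivity 2 were in set 1 and 3 in set 3. The SD of the difference over strains had a median over member probes of 0.531 in set 1, 0.253 in set 2 and 0.555 in set 3. The median difference of the members was below 0 in 11 of 24, 41 of 52 and 7 of 16 strains.

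In set 2 alone, the largest and least variable, 40 member probes were lower and 6 higher at any fold, 36.4% and 5.45% of the members, where 10.2% and 8.44% of all probes were. Among detected probes 41.2% of members and 20.1% of all were lower, and 5.15% of members and 15.6% of all were higher. The median member difference there was -0.0566 on the log2 scale, beside -0.00518 over all probes. Past both thresholds 7 probes were lower (6.36%, where 3.31% of all probes were) and 0 higher (3.93% of all probes were). Mrpl23 (-0.21 ± 0.02 SE, adjusted p 1.7e-12), Mrps28 (-0.25 ± 0.03 SE, adjusted p 2.55e-10) and Mrpl30 (-0.21 ± 0.03 SE, adjusted p 8.26e-08) were added to the 4 probes above, and Mrpl45 fell by 30.4% (-0.52 ± 0.08 SE, adjusted p 5.57e-07). Mrpl54 (-0.19), Mrpl58 (-0.17), a ribosome-bound peptidyl-tRNA hydrolase, and Mrpl11 (-0.14) were lower under the fold threshold, and Mrpl20 (0.18) and Mrpl14 (0.14) higher. Set 1 gave 2 lower and 1 higher member probes at any fold (1.82% and 0.909%, where 1.09% of all probes were lower and 1.09% higher), close to the shares of the array. Set 3 gave none, where 2 probes of the whole array were lower and 4 higher.

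The difference between sets was tested on 1 array per strain and condition, 48 strains of set 2 against 24 of set 1 and 15 of set 3. The response of 14 member probes (12.7%, where 2.43% of all probes did) differed, and in all 14 it was lower in set 2. They included Mrpl11 (difference of responses -0.46 ± 0.10 SE, adjusted p 0.00686), Mrpl30 (-0.37 ± 0.08 SE, adjusted p 0.00731), Mrpl40 (-0.44 ± 0.10 SE, adjusted p 0.00797), Mrpl53 (-0.61 ± 0.15 SE, adjusted p 0.0206), both Mrps11 probes and Mrps28. At an unadjusted p under 0.05, 45 member probes (40.9%) differed, where 16.6% of all probes did. Without the arrays of low connectivity 3 member probes differed (2.73%, where 0.786% of all probes did), Mrps26 (ILMN_3005827, -0.31), Mrpl11 (-0.32) and Mrpl4 (-0.36). Only Mrpl11 among them was also 1 of the 14, and the others of the 14 lost their call. At an unadjusted p under 0.05, 42 member probes differed in that fit. In this comparison each strain was counted in 1 set, but 5 strains had both conditions in 2 sets, BXD-32/TyJ, BXD-40/TyJ, C57BL/6J and DBA/2J in sets 1 and 2 and AXB-8/PgnJ in sets 1 and 3. Over the 4 strains in sets 1 and 2, the mean difference of 4 of the 14 probes was lower in set 2 than in set 1, and set 2 minus set 1 ran from -0.29 through a median of 0.05 to 0.39. The median member difference of these strains was 0.23, 0.06, 0.01 and -0.07 in set 1 and -0.04, -0.06, -0.14 and 0.27 in set 2, so that DBA/2J moved the other way from the 3 others. The set 2 arrays of DBA/2J lay on BeadChip 19, where no array was most like its own strain, so their strain label is in doubt. With so few strains these values are a description. The sets differ for the most part in strains, in spread and in the arrays of low connectivity, and the part of each in the difference was not tested.

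Of the probes past both thresholds over all strains, Mrps35 gave -0.13, -0.30 and -0.30 in sets 1, 2 and 3 and was lower in 17 of 24, 47 of 52 and 14 of 16 strains. The Mrps25 probes gave -0.45, -0.34 and 0.02 (ILMN_1239113) and -0.49, -0.30 and -0.04 (ILMN_2680111), and Mrpl45 gave -0.28, -0.52 and 0.02. Mrps35 was below 0 by a similar amount in sets 2 and 3, whereas Mrps25 and Mrpl45 lay close to 0 in set 3. Mrpl20 gave 0.66, 0.18 and -0.19, and Mrpl53 0.50, 0.03 and 0.76, and neither was higher past both thresholds in set 2.

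**Figure D3:**
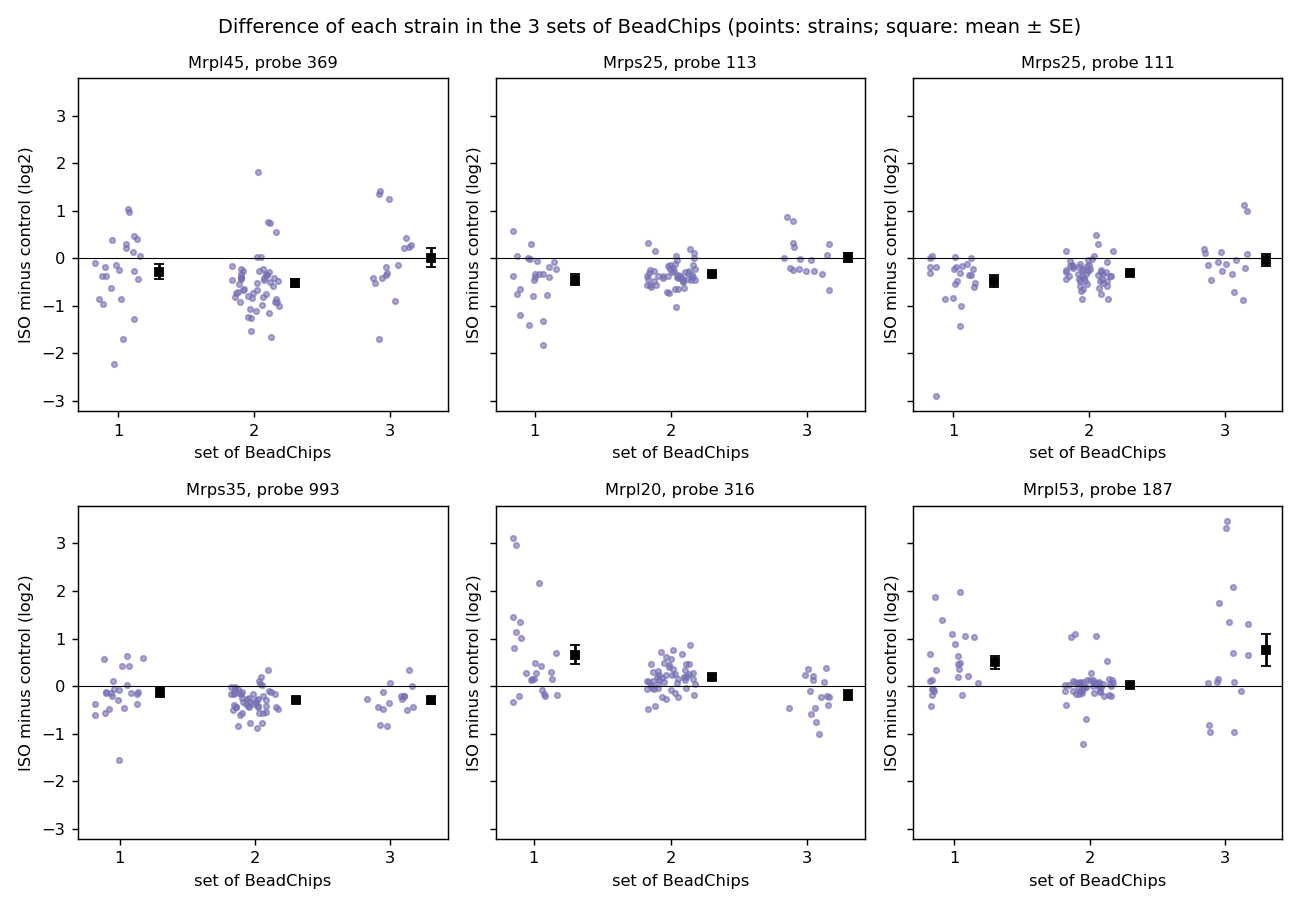
ISO minus control difference (log2 intensity) of each strain (points) in the 3 sets of BeadChips for the 6 probes past both thresholds, with mean ± SE as squares (24, 52 and 16 strains). Strains of set 2 scatter less, Mrps35 lies below 0 in all 3 sets, and the mean of Mrpl20 is below 0 in set 3.

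Other genes that the mitochondrial ribosome works with were counted in the same fit, over all 87 strains and at any fold. In that fit 8.44% of all probes and 17.1% of detected probes were lower, and 6.7% and 12.5% higher. Of 26 probes of mitochondrial aminoacyl-tRNA synthetases, which charge the tRNAs, 7 were lower and 0 higher (median -0.0731), among them 2 of 4 probes of Gatb (-0.32 ± 0.04 SE, adjusted p 1.12e-08, and -0.25), part of the amidotransferase that makes glutaminyl-tRNA, and 2 of 3 probes of Wars2 (-0.37 ± 0.08 SE, adjusted p 0.000117, and -0.11), the tryptophanyl-tRNA synthetase. The other Gatb probes gave -0.14 (adjusted p 0.0878) and -0.13 (adjusted p 0.0944). Of 22 probes for transcription and upkeep of mitochondrial DNA 7 were lower and 1 higher (median -0.043), led by 1 of 2 probes of the topoisomerase Top1mt (-0.32 ± 0.04 SE, adjusted p 1.24e-09; the other gave -0.03). Assembly and rRNA modification factors had 4 of 14 probes lower, led by the pseudouridine synthase Rpusd4 (-0.27 ± 0.04 SE, adjusted p 3.42e-07) and the helicase Dhx30 (-0.14 ± 0.03 SE, adjusted p 1.19e-05). Translation factors had 4 of 18 lower, among them the elongation factor Tufm (-0.14), Gfm2 (-0.14) and the release factor Mtrf1l (-0.20). No probe of these last 2 lists was higher. The shares lower were 26.9% of synthetase probes, 31.8% of mitochondrial DNA probes, 28.6% of assembly probes and 22.2% of translation factor probes.

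Subunits of the respiratory chain and ATP synthase had 17 of 95 probes lower (17.9%, where 17.1% of detected probes were) and 2 higher (2.11%, median -0.0226). Past both thresholds (3.16%, where 3.53% of all probes were) lay 1 of 2 Cox6b2 probes (-0.38 ± 0.06 SE, adjusted p 2.97e-07), Cox6c (-0.22 ± 0.05 SE, adjusted p 0.00139) and 1 of 4 Ndufs4 probes (-0.21 ± 0.05 SE, adjusted p 0.000462). Cytosolic ribosomal proteins had 12 of 77 probes lower (15.6%) and 1 higher (1.3%, median -0.00742), and both Rpl21 probes (-0.25 and -0.23) passed both thresholds. Of 4 Dap3 probes, for a small subunit protein named outside the rule, 2 were higher (0.29 ± 0.10 SE, adjusted p 0.0293, and 0.07 ± 0.02 SE, adjusted p 0.0238), and the others gave 0.06 (adjusted p 0.0702) and -0.03 (adjusted p 0.676). Of 16 probes of regulators of mitochondrial biogenesis 1 was lower, that of the coactivator Ppargc1b (-0.22 ± 0.05 SE, adjusted p 0.000293). In set 2 the shares lower were 38.9% of respiratory chain probes, 50% of assembly probes, 30.8% of synthetase probes and 20.8% of cytosolic ribosomal probes. Beside these stood 36.4% of the members and 20.1% of detected probes.

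Markers of fibroblasts and macrophages moved with ISO over the same strains. Higher at any fold were 75% and 91.7% of their probes, where 12.5% of detected probes were. Lower were 13.3% of cardiomyocyte and 18.2% of endothelial marker probes, near the 17.1% of detected probes. Of 12 fibroblast marker probes 9 were higher (median 0.366), led by Mfap5 (0.82 ± 0.09 SE, adjusted p 5e-12), and the mean log2 level of the list ran from 7.49 to 9.45 in control and from 8.21 to 10.1 in ISO strains and was higher in 71 of 87. Of 12 macrophage marker probes 11 were higher (median 0.35), led by 2 of 3 Lyz2 probes (0.62 ± 0.08 SE, adjusted p 6.92e-09, and 0.82), with list levels from 6.41 to 8.54 and from 7.08 to 9.08, higher in 75 of 87 strains. Cardiomyocyte markers had 2 of 15 probes lower and 0 higher, 1 of 2 Myh6 probes (-0.10) and Pln (-0.18), with list levels from 12.9 to 13.7 and from 12.3 to 13.6, lower in 55 of 87 strains. Endothelial markers had 2 of 11 probes lower (Tie1, -0.24, and Emcn, -0.13), with list levels from 8.19 to 9.34 and from 7.51 to 9.22. Of the defining markers, Postn, Fcgr1, Fabp4 and Kdr fell short of detection on 50% of the arrays. In bulk tissue fewer cells of a type and less RNA per cell cannot be told apart, and the part of these shifts in the falls of the members was not tested.

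**Figure D4:**
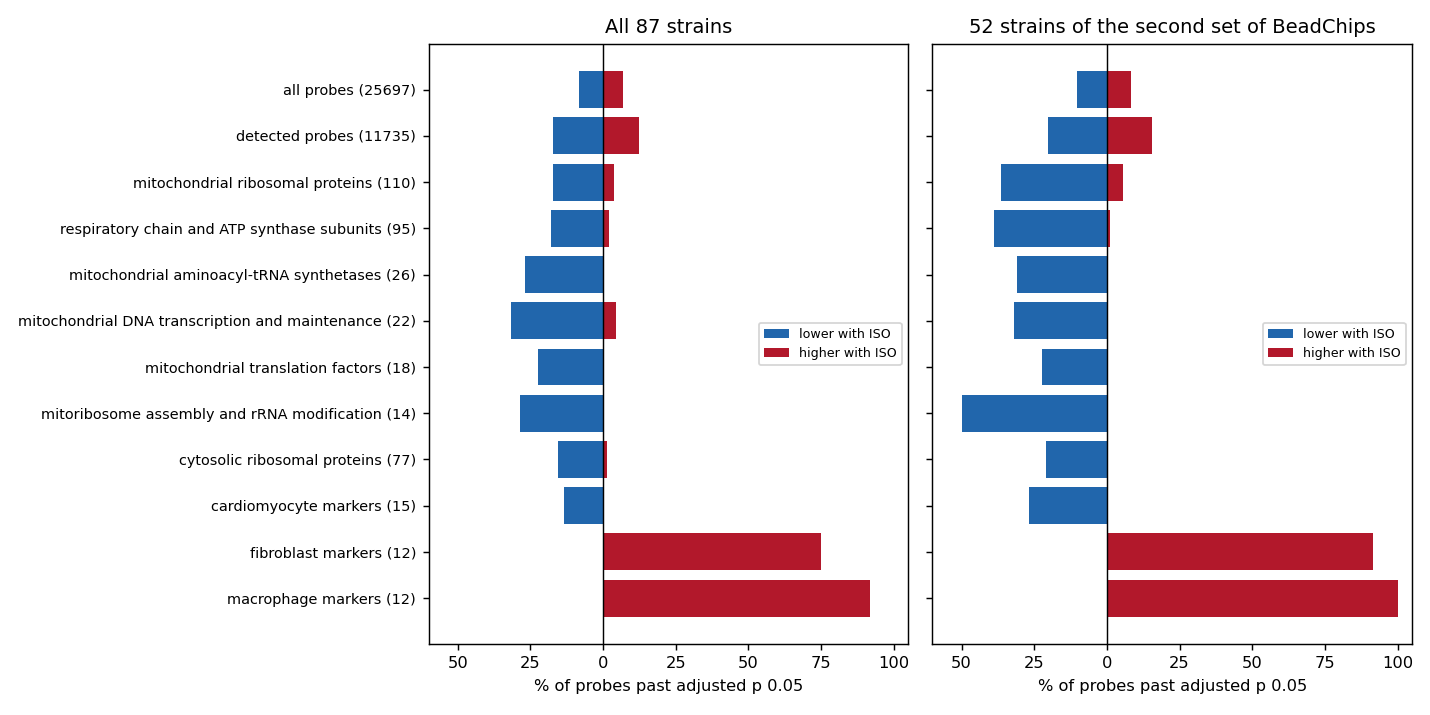
Share of the probes of each list that were lower (left of 0, blue) or higher (right of 0, red) with ISO at an adjusted p under 0.05, over all 87 strains and over the 52 strains of set 2; the number of probes is in brackets. The share of lower members was 17.3% over all strains and 36.4% in set 2.

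No member passed the test for the kind of strain, and the test for the place on the BeadChip could not separate place from strain. No member probe responded differently in RI and classical strains, and no probe of the whole array did (0%) by limma with adjustment over all probes. At an unadjusted p under 0.05 the count was 0 of 110 member probes and 4.09% of all probes, and over the other settings it ran from 0 to 9 member probes. The 9 (8.18% of members, 4.39% of all probes) were found with BeadChips 12, 19, 23, 24 and 25 left out. Control arrays at B, D, F or H were set against those at A, C, E or G within BeadChips. No member probe differed and 1 probe of the array did (0.00389%), but only 7 control arrays lay at B, D, F or H. All 7 were on BeadChips 12, 23 and 25, where the control arrays compared came from different strains. This comparison can therefore neither show nor exclude an effect of position. In that comparison the median difference was -0.0313 over member probes, 0.486 over fibroblast and 0.265 over macrophage marker probes.

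The direction of the members as a whole varied over the strains, most of which had 1 array per condition. The median difference over the 97 detected member probes was below 0 in 58 of 87 strains and ran from -0.42 to 1.02 (SD 0.22). It was below 0 in 18 of 27 classical strains, 25 of 33 BXD, 4 of 7 AXB, 6 of 9 BXA, 2 of 4 BXH and 3 of 7 CXB strains. The highest values were in the AXB panel, 1.02 in AXB-4/PgnJ and 0.987 in AXB-6/PgnJ, where the next AXB strain stood at 0.259. Both, and AXB-19/PgnJ, had an array of low connectivity. In every strain with both conditions in 2 sets of BeadChips, the median member difference changed sign between the sets. AXB-8/PgnJ, for example, gave 0.54 in set 1 and -0.07 in set 3. With 1 array per condition in most strains, strain and array cannot be told apart here.

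Members varied together across strains to a small degree. The median correlation between detected probes of different member genes was 0.11 over 93 control strains, 0.10 over 93 ISO strains and 0.16 for the differences of 87 strains, beside 0 for detected probes of the array in all 3, and between large and small subunit probes it was 0.12, 0.10 and 0.18. These values describe probes that share arrays, and arrays of low connectivity enter them. The SD over control strains had a median of 0.39 for detected members and 0.437 for detected probes. The correlation of control with ISO levels over 87 strains passed 0.5 in 39 of 97 detected member probes (40.2%), beside 31.5% of detected probes.

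Mrpl35, of the large subunit, had the widest spread of the members (SD 1.36 over control strains, 1 probe, ILMN_2753924) and lay at 2 separate levels. On 42 arrays its log2 intensity was between 4.33 and 4.92, near the floor of the array, and on the other 166 between 6.02 and 8.86, with no array between. Of 99 strains, 17 were low on every array, 73 high on every array, and 9 had arrays on both sides. Of 92 pairs of control and ISO arrays of a strain on the same BeadChip, 87 lay on one side, but such a pair shares its BeadChip as well as its strain. Low arrays gathered on some BeadChips. All 8 arrays of BeadChip 9 and 5 of 8 on BeadChip 2 were low, whereas 10 of 26 BeadChips held no low array and the other 15, BeadChip 2 among them, held both kinds. BeadChips 3, 4, 10, 16, 18, 20, 22 and 26 each held 2 low arrays. On each these were the control and the ISO array of 1 strain, beside high arrays of the other strains. The difference with ISO over 87 strains was -0.04 ± 0.10 SE (adjusted p 0.873).

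The strains low for Mrpl35 on every array were 12 of 40 BXD, 2 of 7 CXB and 3 of 29 classical strains (C3H/HeJ, LG/J and RIIIS/J). Of these 12 BXD strains, 4 (BXD68/RwwJ, BXD70/RwwJ, BXD71/RwwJ and BXD73/RwwJ) made up the whole of BeadChip 9, where strain and BeadChip cannot be told apart. Another 3 (BXD-1/TyJ, BXD-6/TyJ and BXD-19/TyJ) had a single array each, so a low level on every array means little there. These arrays all lay on BeadChip 25, where only 2 arrays could be compared and neither was most like its own strain. The BXD strains descend from C57BL/6J and DBA/2J, and both were high, between 7.26 and 8.03 on 4 C57BL/6J arrays and between 7.07 and 8.17 on the DBA/2J arrays. C3H/HeJ, a parent of the BXH panel, was low, whereas 4 of 5 BXH strains were high on every array and 1 lay on both sides. Of the 9 strains on both sides, 5 had an array on BeadChips 12, 19, 23, 24 and 25, 2 had an array of low connectivity, and 2 had neither. In BXD-32/TyJ, 1 of the latter, both arrays of BeadChip 4 were high and both of BeadChip 15 low. Neither a base difference under the probe nor a difference in transcript level was tested as a source of the 2 levels.

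**Figure D5:**
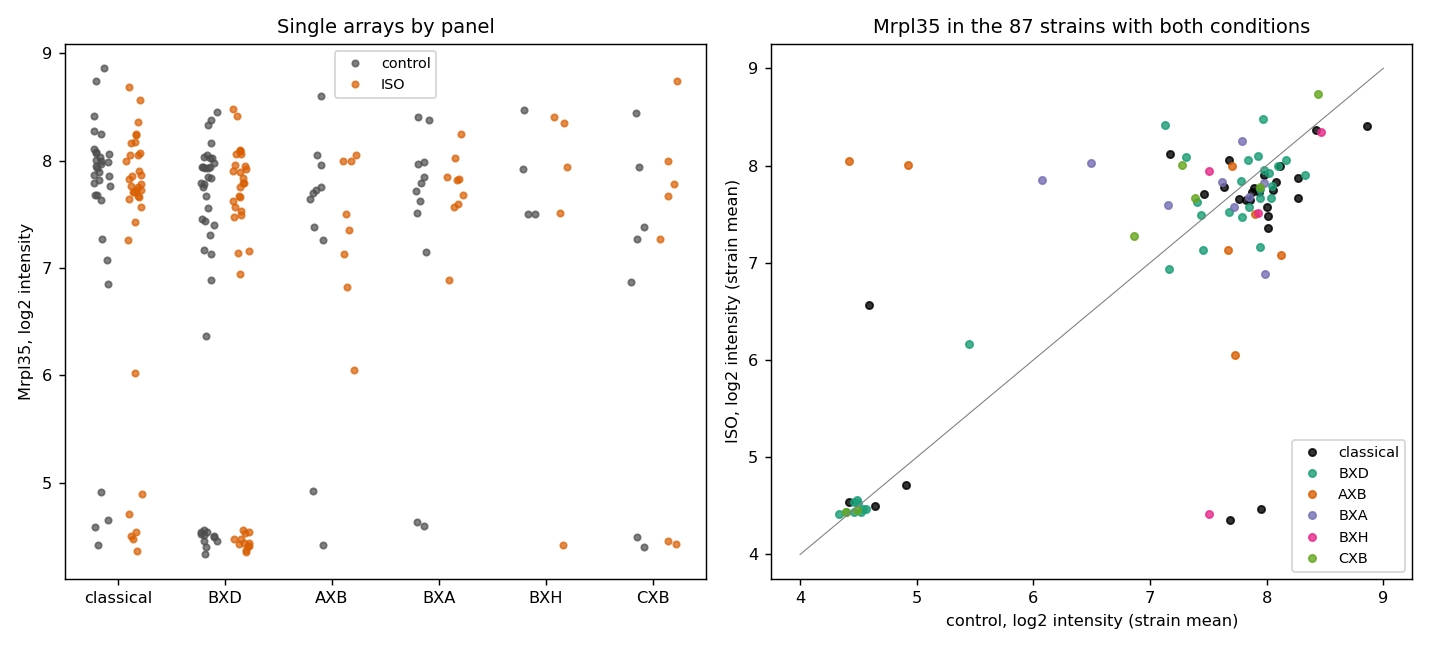
Log2 intensity of Mrpl35 on every array, by panel and condition (left), and the ISO against the control strain mean of the 87 strains with both conditions (right; the line marks equal levels). No array lies between 4.92 and 6.02. Strains low on every array were 12 of 40 BXD, 2 of 7 CXB and 3 of 29 classical strains.

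Mrpl10 and Mrpl3 spread widely at 1 of 2 probes. Mrpl10 had an SD of 1.18 over control strains at one probe (ILMN_2822622) and 0.17 at the other (ILMN_2822621), and Mrpl3 1.35 at one probe (ILMN_1231390) and 0.25 at the other (ILMN_2643264). Mrps27, which has a single probe and ran from 4.80 through 8.10 to 9.44 in control strains (SD 1.20), and Mrpl27 (SD 0.97, median 10.5) completed the 5 widest probes. Mrps31 was as wide at 1 of 4 probes (SD 0.97, beside 0.55, 0.31 and 0.18), and Mrpl48 had SDs of 0.96 and 0.94 at 2 of its 5 probes and of 0.38, 0.11 and 0.09 at the others. For Mrps27 the 2 C57BL/6J arrays of BeadChip 1 gave 6.09 and 7.34 and those of BeadChip 16 gave 9.15 and 8.78, so arrays of a single strain differed by more than the SD over strains. The 5 member probes of highest mean intensity, which does not compare RNA amounts between genes, were those of Mrps24, Mrpl28, Mrpl33 and Mrpl42. Mrps24 ran from 13.04 through 13.32 to 13.76 (SD 0.13), Mrpl28 from 11.9 through 12.7 to 13.2 (SD 0.17), while the 2 Mrpl33 probes had SDs of 0.17 and 0.35, and Mrpl42 had an SD of 0.60.

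Genes with a lower probe and those without were also compared for the 3 promoter motifs, as counts only. Of 13 member genes with a probe lower with ISO at any fold and a promoter window, 3 (23.1%) held at least 1 of the 3 motifs, and of 54 with no lower probe 33 (61.1%) did. No test was made, and 9 genes, Mrps35 and Mrps28 among them, had no window.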

How the data were processed

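The intensity of every probe and its detection p-value were deposited as exported by the authors from GenomeStudio (version 2010.3), and the log2 values deposited beside them were made by the authors with limma's neqc. The study's methods leave out probes over known base differences between strains; the table used here holds all 25697 gene probes, and no such filter was applied. The intensities were normalised anew with neqc (normexp background correction from detection p-values, offset 16, quantile normalisation) in limma 3.58.1 (R 4.3.3); they differed from the deposited log2 values by a median of 0.00057. The number of arrays, not a read depth, limits the precision.

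Arrays of a strain and condition were averaged. ISO and control were compared over 87 strains with strain as a block (lmFit, eBayes; Benjamini-Hochberg adjustment over all 25697 probes), since arrays of a strain share its genotype: deviations of the 2 conditions correlated with a median of 0.547 within strains (over 0.1 in 79 of 87) and -0.0189 between strains. Probes counted as changed at an adjusted p under 0.05 and a log2 difference beyond 0.2, the study's thresholds. RI and classical strains were compared on the strain differences, and positions within BeadChips on control arrays. Probe symbols came from the platform annotation (23978 probes with 1 symbol, 1719 with none). The scripts were tested on simulated data. The other settings tried were no block, the deposited values, no background correction, median scaling, detected probes, single arrays, first arrays, pairs on 1 BeadChip, no arrays of low connectivity, no BeadChips 12, 19, 23, 24 and 25, the 3 sets of BeadChips singly, and the p threshold without the fold. Leaving out both the arrays of low connectivity and these BeadChips, set 3 without the arrays of low connectivity, the test between sets and leaving out single strains or AXB-4/PgnJ and AXB-6/PgnJ together were chosen after seeing the data.

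The members, the gene lists and the settings were chosen with earlier results of these data known. Named are the members past both thresholds at every probe, otherwise up to 10 in each direction with the smallest p among those past the adjusted p, Mrpl9 and Mrps21, members whose probes disagree, the Mrps18 paralogs, the 5 widest and 5 brightest probes, the members nearest to each threshold and, of each other list, up to 3 genes; the other members were named after their values were seen.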

Additional observations from a re-analysis of the deposited data

Results flagged for a closer look

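The response of 14 member probes to ISO differed between set 2 of the BeadChips and sets 1 and 3 together, by limma on the strain differences, and all 14 were lower in set 2 (12.7% of members, 2.43% of all probes). Without the 5 arrays of low connectivity the number was 3 (2.73%, 0.786% of all probes), of which only Mrpl11 was also among the 14. Most strains lie in a single set. Of the 4 strains with both conditions in sets 1 and 2, the mean difference was lower in set 2 for 4 of the 14 probes. The set 2 arrays of DBA/2J, 1 of these strains, lay on BeadChip 19, where no array was most like its own strain. The part of the strains in the difference between sets was not tested.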

How the results depend on the processing

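Over all 87 strains, 4 member probes were lower (3.64%, 3.53% of all probes) and 2 higher (1.82%, 3.72% of all) past both thresholds. At any fold 19 were lower (17.3%, 8.44% of all) and 4 higher (3.64%, 6.7% of all). The median log2 difference of the members, -0.0041 over all strains, changed its sign between settings and ran from -0.0566 (set 2 alone) to 0.0912 (set 3 alone); it was 0.0349 in set 1 alone and -0.0242 without the arrays of low connectivity. With no fold threshold the counts past the p threshold were 19 and 4. Lower probes past both thresholds numbered 1 with no background correction (0.909% of members, 1.19% of all probes) and 2 in set 1 alone (1.82%, 1.07% of all). They numbered 7 in set 2 alone (6.36%, 3.31% of all). In set 3 alone they numbered 0 (0.00778% of all), also without the arrays of low connectivity (0% of all). Higher probes past both thresholds numbered 1 (0.909% of members) with no background correction (1.67% of all probes), with median scaling (3.37%) and in set 1 alone (1.07%). The number was also 1 without AXB-4/PgnJ and AXB-6/PgnJ (3.41% of all). It was 1 again without both the arrays of low connectivity and BeadChips 12, 19, 23, 24 and 25 (4.42% of all). It was 0 in set 2 alone (3.93% of all) and without the arrays of low connectivity (3.63%). In set 3 alone it was 0 (0.0156% of all), also without the arrays of low connectivity (0% of all). It was 4 (3.64% of members) with single arrays (3.99% of all) and for pairs on the same BeadChip (3.88%). At any fold, lower probes numbered 10 with median scaling (9.09% of members, 6.77% of all probes) and 2 in set 1 alone (1.82%, 1.09% of all). They numbered 40 in set 2 alone (36.4%, 10.2% of all) and 0 in set 3 alone (0.00778% of all). Higher probes numbered 2 with median scaling (1.82%, 5.11% of all) and 9 with single arrays (8.18%, 6.84% of all). They numbered 7 for pairs on the same BeadChip (6.36%, 6.65% of all) and 1 in set 1 alone (0.909%, 1.09% of all). In set 2 alone they numbered 6 (5.45%, 8.44% of all) and in set 3 alone 0 (0.0156% of all). Set 3 without the arrays of low connectivity also gave 0 lower and 0 higher (0% of all). Leaving out each of 87 strains in turn gave 4 lower and 1 to 2 higher probes past both thresholds, and 18 to 20 lower and 4 to 6 higher at any fold. The deposited values gave the same 4 counts. The cause of these moves was not tested, but the sets hold fewer strains.

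Without strain as a block (no pairing) 1 probe was higher past both thresholds over all strains and over the strains with both conditions (0.909% of members, 3.09% and 2.93% of all probes). At any fold 11 and 10 were lower (10% and 9.09% of members, 4.79% and 4.35% of all). The higher probes at any fold were 2 and 2 (1.82% of members, 4.16% and 3.92% of all).

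Single probes turned in direction in sets 1 and 3 only. In set 1 alone Mrpl23 gave 0.039, Mrps24 0.036, Mrps28 0.021, Mrpl2 0.022 and Mrps26 0.047. In set 3 alone Mrps25 (ILMN_1239113) gave 0.019, Mrpl45 0.017, Mrpl47 0.15, Mrps28 0.081 and Mrpl20 -0.191, and without the arrays of low connectivity Mrpl47 gave 0.108 and Mrpl20 -0.092.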
